A study of Mus musculus with 76 samples.

Results

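Cytoplasmic ribosomal protein genes were followed across the thymus, lymph node and T cell cultures of mice with the SOD1-G93A transgene, in which amyotrophic lateral sclerosis (ALS) is modelled, and of wild-type (WT) mice. The members are the genes whose symbol in the whole thymus table is Rpl or Rps with a number, or Rplp0, Rplp1, Rplp2 or Rpsa, without the 305 symbols that end in -ps for pseudogene. This rule took 89 of 55487 genes, 53 of the large subunit and 36 of the small one, on 19 chromosomes. GENCODE annotates 83 of them as protein-coding, Rpl32l, Rpl6l, Rps12l1, Rps3a2 and Rps3a3 as processed pseudogenes and Rps4l as a transcribed processed pseudogene.

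Ribosomal proteins pack around the ribosomal RNAs to form the subunits that make every cellular protein, and each is needed in about equal number. Their mRNAs are short, abundant and long-lived, and many begin with a run of pyrimidines, the TOP element, through which mTORC1 signalling sets how strongly they are translated. T cells that meet antigen raise Myc and mTORC1 activity and build ribosomes before they divide. When ribosome assembly fails, free Rpl5 and Rpl11 bind Mdm2 and stabilise p53. A few ribosomal proteins have a paralogue, such as Rps27l, a p53 target, Rpl22l1, whose expression Rpl22 represses in mouse, and Rpl3l, Rpl39l and Rpl10l, which are known from muscle or testis.

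The 76 RNA sequencing libraries were made with a low-input full-length kit. SOD1 mice carry a human mutant SOD1 transgene, expressed broadly from its own promoter, and the genotype field separates them from WT mice, although the strain field reads SOD1-G93A for both. Sorting of thymus labelled d120 or d30 gave CD4 T cells, regulatory T cells (Treg), and medullary and cortical thymic epithelial cells (mTEC and cTEC). Whole thymus, which was not sorted, and iLN were taken at d120. Cultures of cells labelled Treg, with titles that read Tregdiff, were taken without activation (T0) and after activation (T2 and T20), and the labels give no unit for these times. There were 24 genotype groups of 3 libraries, and cTEC d30 WT and CD4 d30 WT had 2 libraries each. Nothing in the labels says whether the libraries of a group come from separate animals, so p-values measure the spread between these libraries. In bulk samples, fewer cells of a type and less RNA per cell cannot be told apart.

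Total counts ran from 15135 to 36919936 per library, and 8 libraries fell under 3e+05 counts or 8000 detected genes, among them mTEC d30 SOD1 1 with 15135 counts. Sod1 counts, in which transgene and mouse reads cannot be told apart, lay at 66.1 to 320 CPM, the count scaled to library size, in SOD1 against 30.6 to 35.4 CPM in WT mTEC at d30, the closest pair, and at 3058 to 3503 against 109 to 391 in T0 cultures. In the library of 15135 counts a single read makes 66.1 CPM, so its Sod1 level cannot show its genotype. The 8 cTEC markers summed to between 8071 and 37361 CPM in cTEC libraries and 1382 to 2198 in mTEC libraries. The 6 Treg markers, Foxp3 among them, reached 1311 to 2394 CPM in sorted Treg and 503 to 1650 in sorted CD4 libraries. In the cultures labelled Treg they reached 56.2 to 436 CPM at T0, 1748 to 4812 at T2 and 1838 to 3824 at T20, so the T0 libraries lie below every sorted CD4 library in this sum.

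The share of a library that fell on the 89 genes was lowest in thymic epithelium and highest in activated cultures. It was 1.36% to 1.98% of counts in mTEC and 1.27% to 2.35% in cTEC libraries, and these ranges overlap. Sorted Treg libraries held 2.44% to 4.01% and sorted CD4 libraries 2.14% to 7.09%. iLN libraries held 3.66% to 7.25%. In cultures the share was 4.20% ± 0.33 in SOD1 and 4.43% ± 1.62 in WT libraries at T0, 5.60% ± 3.15 in SOD1 and 9.34% ± 0.96 in WT at T2, and 8.54% ± 0.43 in SOD1 and 9.32% ± 0.82 in WT at T20 (SD, n = 3 each). Of the whole thymus TPM, a value scaled for gene length, 15.8% ± 1.54 in SOD1 and 15.6% ± 0.38 in WT libraries fell on the members (SD, n = 3 each), and this share cannot be set against the shares of counts. The median principal transcript of the protein-coding members has 886 bases, against 2577 bases over all protein-coding genes, and a short transcript gathers few counts per molecule. The 2618 other protein-coding genes under 1000 bases are therefore given beside the members where it matters.

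**Figure D1:**
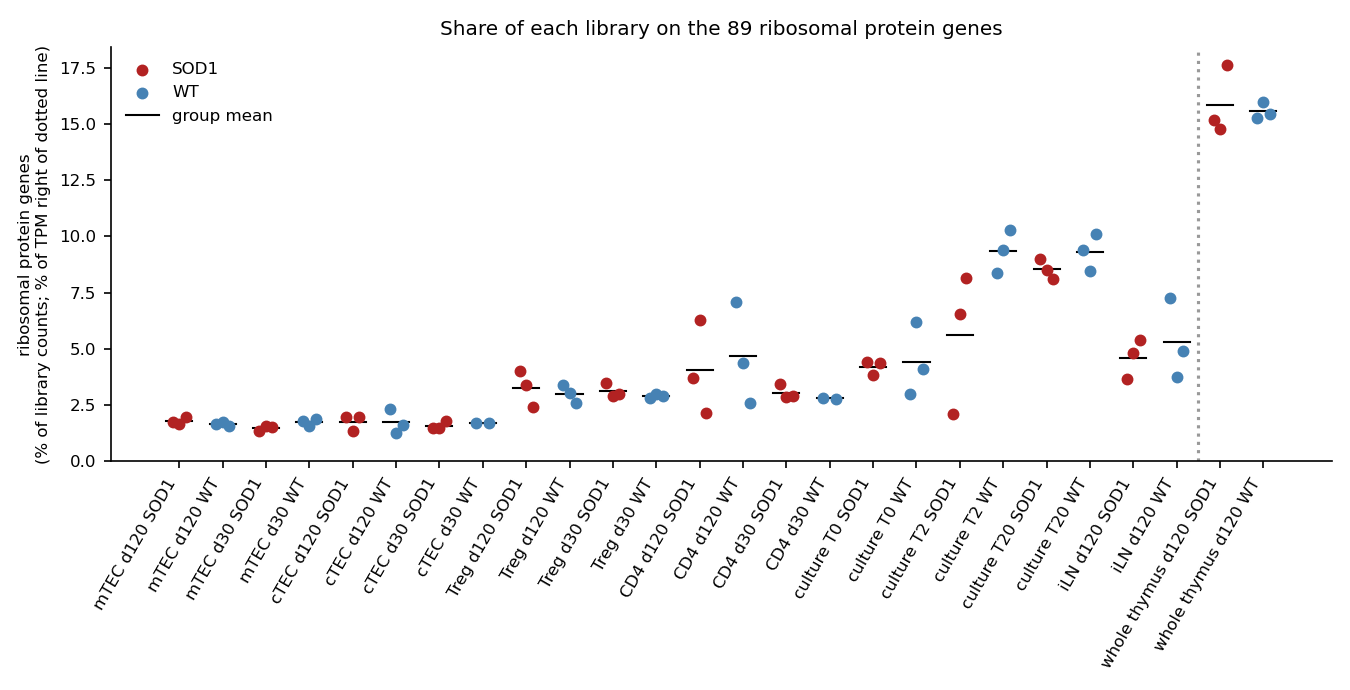
Share of each library on the 89 ribosomal protein genes (percent of counts, or percent of TPM right of the dotted line), 1 point per library, with the group mean as a bar. The T2 and T20 cultures lie at 6.55% to 10.3%, apart from 1 SOD1 library at T2 with 2.08%.

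Large subunit genes took more counts, or more TPM in whole thymus, than small subunit genes in every library, by a ratio of 1.18 to 1.77. In mTEC the ratio was 1.55 to 1.77 at d120 and 1.24 to 1.49 at d30, and in Treg it was 1.43 to 1.58 at d120 and 1.31 to 1.38 at d30, with no overlap in either population. The cTEC ratios were 1.53 to 1.76 at d120 and 1.39 to 1.64 at d30, and the CD4 ratios 1.42 to 1.64 at d120 and 1.40 to 1.49 at d30, and both of these overlap. Among libraries with counts, T0 cultures (1.22 to 1.30) and iLN (1.18 to 1.26) had the lowest ratios, apart from mTEC d30 SOD1 1 at 1.24. Whole thymus, in TPM, lay at 1.24 to 1.30.

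Per length, the levels of the members in whole thymus ran from 0 to 5941 TPM. Among the highest in whole thymus were Rps27 of the small subunit, Rplp1 of the acidic stalk, and the large subunit genes Rpl13a and Rpl41. Rps27 had 4500, 5075 and 5941 TPM in SOD1 libraries and 5228, 5501 and 5293 TPM in WT libraries. Rplp1 had 5302, 4632 and 5730 TPM in SOD1 libraries and 4580, 5422 and 4468 TPM in WT libraries. The genotypes overlap for both genes, and their levels do not differ beyond that spread. The 5 lowest were Rps12l1, listed at 0 in all 6 libraries, Rpl10l, Rpl3l, Rpl39l and Rpl32l, of which Rpl32l reached the highest value, 2.67 TPM in WT 3. Among the abundant members, uneven levels were seen for Rps2, with 558, 554 and 1438 TPM in SOD1 libraries against 1220, 523 and 1275 in WT libraries, and Rpl29, with 178, 222 and 865 TPM in SOD1 libraries against 251, 826 and 241 in WT libraries. Their high and low libraries do not follow genotype, and their levels with near-identical copies added are given below.

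Near-identical copies make single levels uncertain. Of the 89 members, 81 have at least 1 annotated copy elsewhere with 95% identity over 200 bases, with a median of 6 and up to 66 copies for Rpl21. A median of 2.54% of the counts of a member and its copies lay on the copies, but 50.7% did for Rpl29 with 49 copies and 35.3% for Rps2 with 47 copies. Of the whole thymus TPM, 71.9% lay on the copies for Rpl29 and 58.0% for Rps2. With the copies added, Rpl29 had 1353 to 1680 TPM and Rps2 had 2064 to 2381 TPM over the whole thymus libraries. These sums were more even than the levels of either gene alone, and how reads were shared between copies was not tested. For 26 members the copies held over 10%. Rps27l, Rpl39, Rps4l and Rpl3l have no such copy, and for Rpl4, Rpl7l1, Rpl22l1 and Rpl22 the copies held 0.293%, 0.94%, 1.10% and 1.84%. Rps27 (10.1%), Rpl3 (10.8%), Rps12 (16.1%) and Rps26 (22.3%) are less certain.

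More members rose in culture with activation than in any other comparison. The test compared T2 with T0 and T20 with T0 over both genotypes, with the same T0 libraries in both. Fold changes are on the log2 scale with SE, from edgeR's quasi-likelihood test with Benjamini-Hochberg adjustment over all 11787 genes tested, and the CPM of members are given after TMM scaling of the libraries, unlike those of markers and Sod1. At T20, 58 of 83 tested members were higher than at T0 and 0 lower, or 69.9%, where 25.5% of all genes tested were higher and 36.1% lower. The median change was 0.83 over the members, -0.25 over all genes and 0.87 over the other short genes, of which 52.3% were higher. At T2, 28 members were higher and 2 lower than at T0, or 33.7% higher against 25.4% of all genes tested and 43.3% of the other short genes; 36.1% of all genes were lower. The median at T2 was 0.49 over the members and 0.67 over the other short genes.

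The library T2 SOD1 1 stood apart. It held 5100377 counts, of which 2.08% fell on members and 1.67% on the other short genes, against 6.55% to 10.3% and 5.27% to 6.54% in the other 5 T2 libraries. Its mitochondrial share was 0.378%, and its large to small subunit ratio of 1.69 was the highest of all cultures. Without it, 66 members were higher and 2 lower at T2, with a median of 0.72. At T20 none of the 12 fits without a library gave fewer than 49 or more than 72 members higher, and none gave a lower one.

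Rps27l, a paralogue of Rps27 with no near-identical copy, changed most among the protein-coding members. It had 51.9, 47.1 and 59.9 CPM in SOD1 and 42.7, 102 and 88.3 CPM in WT cultures at T0. It had 46.2, 246 and 348 CPM in SOD1 and 303, 369 and 326 CPM in WT cultures at T2, and 319, 285 and 173 CPM in SOD1 and 289, 407 and 348 CPM in WT cultures at T20. All T20 libraries and all T2 libraries but SOD1 1 lie above every T0 library. The change was 2.02 ± 0.35 at T2 (adjusted p = 4.68e-08) and 2.21 ± 0.35 at T20 (adjusted p = 2.47e-09). Rps27 itself, a zinc finger protein of the small subunit, did not follow. It had 1397, 1041 and 1345 CPM in SOD1 and 762, 1293 and 1357 CPM in WT cultures at T0, and 129, 569 and 526 CPM in SOD1 and 797, 1049 and 990 CPM in WT cultures at T2. Rps27 fell by 0.95 ± 0.30 at T2 (adjusted p = 0.00278), and the change at T20 was -0.27 ± 0.29 (adjusted p = 0.43). Rps16, of the small subunit, was the other member called lower at T2, by 0.80 ± 0.25 (adjusted p = 0.00319). The call of Rps16 was lost in 8 of 22 alternatives and that of Rps27 in 3 of 22. For Rps27 the SOD1 libraries at T2 all lay below those at T0, while the WT libraries at T2 lay within the WT range at T0.

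Rpsa, the laminin receptor protein of the small subunit, had 584, 583 and 740 CPM in SOD1 and 748, 969 and 818 CPM in WT cultures at T0, and 2181, 2139 and 2169 CPM in SOD1 and 2089, 2395 and 2227 CPM in WT cultures at T20. Every T20 library lies above every T0 library. Rpsa rose by 1.28 ± 0.25 at T2 (adjusted p = 1.9e-06) and by 1.58 ± 0.26 at T20 (adjusted p = 4.68e-09). Rpl4, a core protein of the large subunit, had 698, 688 and 698 CPM in SOD1 and 637, 1221 and 908 CPM in WT cultures at T0, and 1471, 1937 and 2182 CPM in SOD1 and 2302, 2114 and 2198 CPM in WT cultures at T2. All 6 T2 libraries, the one that stood apart included, lie above every T0 library. Rpl4 rose by 1.33 ± 0.21 at T2 (adjusted p = 8.97e-10) and by 1.21 ± 0.21 at T20.

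Rpl7l1, a paralogue of Rpl7, had 69.8, 48.3 and 69.6 CPM in SOD1 and 32, 57.9 and 41.2 CPM in WT cultures at T0, and 232, 198 and 122 CPM in SOD1 and 140, 142 and 155 CPM in WT cultures at T2. The T2 libraries all lie above the T0 libraries, and Rpl7l1 had the smallest adjusted p of the members at T2, with a rise of 1.63 ± 0.23 (adjusted p = 6.51e-12) and of 1.34 ± 0.23 at T20. Rpl3, at the peptidyl transferase centre, rose by 1.31 ± 0.23 at T2 (adjusted p = 5.04e-08), and Rplp0, the base of the stalk, by 1.14 ± 0.26 (adjusted p = 3.4e-05). Rpl27 and Rps26 changed more at T20, by 2.13 ± 0.35 (adjusted p = 9.81e-09) and 1.66 ± 0.31 (adjusted p = 4.79e-07). Rpl27 had 552, 341 and 309 CPM in SOD1 and 214, 906 and 404 CPM in WT cultures at T0, and 2852, 2494 and 1580 CPM in SOD1 and 1283, 1812 and 1988 CPM in WT cultures at T20, with no overlap. Between T20 and T2 edgeR called 0 of 83 members (0.0424% of all genes), and DESeq2 and limma voom called 0. At an unadjusted p under 0.05 there were 12 members, beside 599 of all 11787 genes tested.

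**Figure D2:**
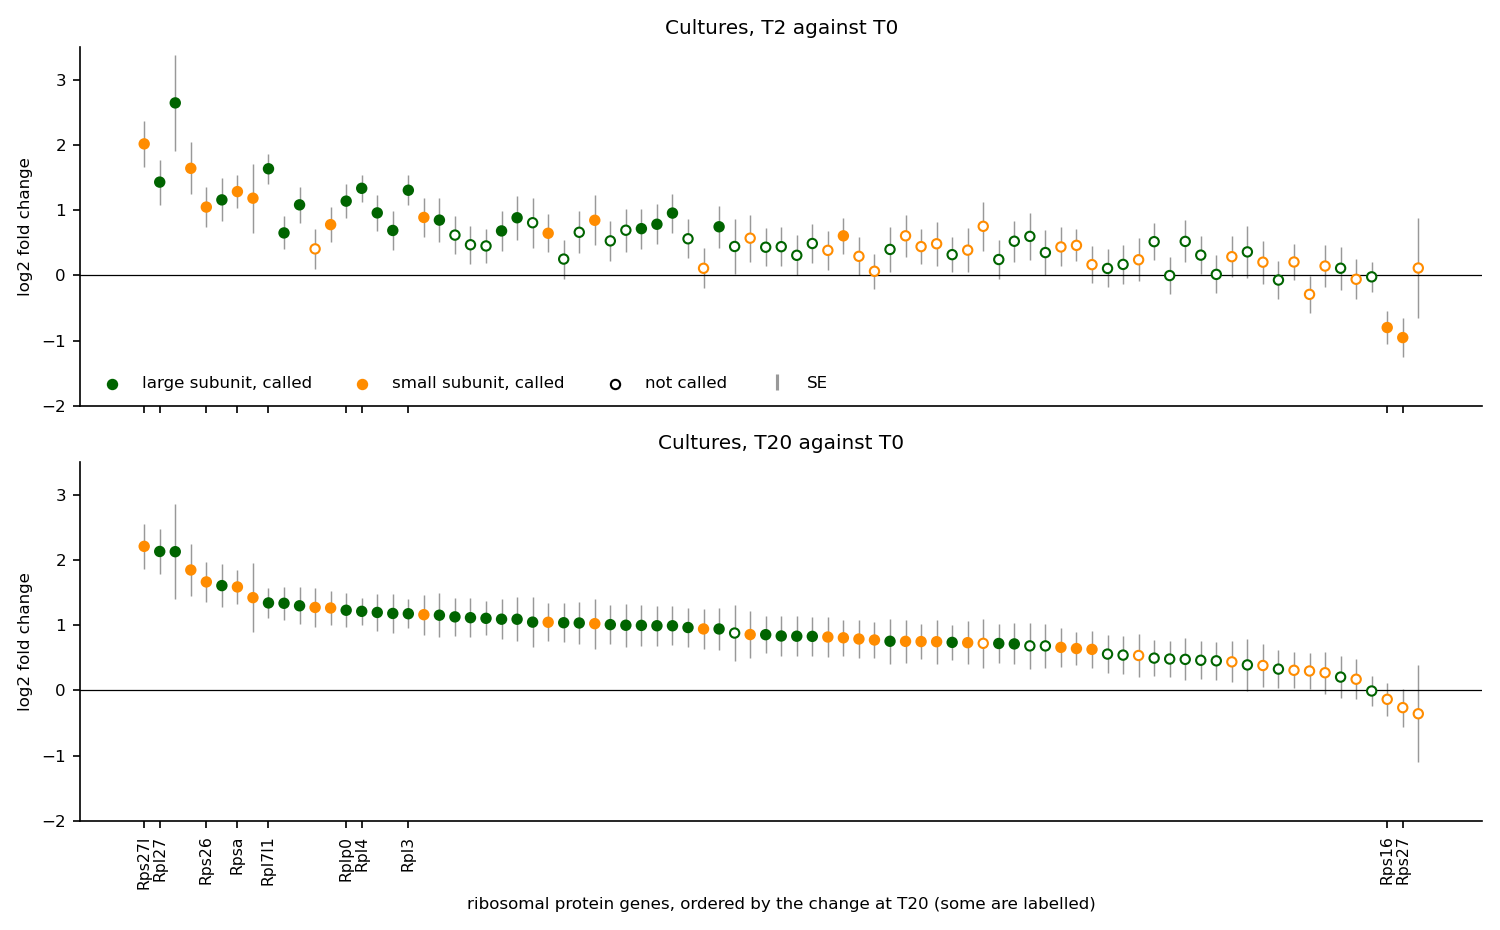
Log2 fold change with SE of the 83 tested ribosomal protein genes in cultures at T2 (above) and T20 (below) against T0, ordered by the change at T20, some of them labelled, with filled points for genes past an adjusted p of 0.05. At T20, 58 points are filled and all lie above 0, while at T2 Rps27 and Rps16 are filled below 0.

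Other genes of ribosome production moved with the members in culture. Of 50 ribosome biogenesis factors, 42 were higher and 1 lower at T2 (median 1.24), and 36 were higher and 1 lower at T20 (median 1.02). Noc4l, which works in small subunit assembly, rose by 2.42 ± 0.28 at T2, and Ebna1bp2, of large subunit assembly, by 2.51 ± 0.29. Of 18 elongation factors and other mRNAs of the TOP class, 15 were higher and 1 lower at both times, with rises of 2.48 ± 0.29 for Npm1 at T2 and 1.85 ± 0.20 for Hnrnpa1 at T20. The exception was Eif4a2, an RNA helicase of initiation, which fell by 1.54 ± 0.20 at T2. Of 20 other initiation factors, 17 were higher at T2 and 14 at T20, and 0 lower at either time. Of 77 mitochondrial ribosomal protein genes, 50 were higher and 2 lower at T2, and 59 were higher at T20. RNA polymerase I genes did not move in 1 direction, with 4 of 14 higher and 2 lower at T2. Among 19 tested genes of Myc and mTORC1 control, Myc rose by 1.63 ± 0.23 at T2, while the Myc antagonist Mxd4 fell by 3.28 ± 0.33 and Rictor, of mTORC2, fell by 2.53 ± 0.27. These genes were picked by their small p and do not stand for that list as a whole. These lists are set against the same backgrounds of 25.4% higher at T2 and 25.5% at T20. Beside them, the mitochondrially encoded transcripts fell (10 of 13 at T2, 6 at T20), 8 of 11 leukocyte and thymocyte markers fell at each time, and all 6 Treg markers rose. None of these 11 and 6 markers was at 0 throughout a culture time. The part of these shifts in the member counts was not tested.

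Among sorted CD4 cells, 20 of 82 tested members were higher at d120 than at d30 and 0 lower, or 24.4% higher, against 8.05% of all genes tested and 9.44% of the other short genes, while 10.1% of all genes were lower. The median was 0.85 over the members, -0.02 over all genes and 0.25 over the other short genes, with 0.87 for the large and 0.81 for the small subunit. Age cannot be told apart from the set of libraries made for each day. The d120 libraries were uneven. Rps27 had 631, 1457 and 371 CPM in SOD1 and 2361, 665 and 466 CPM in WT libraries at d120, and 428, 354 and 324 CPM in SOD1 and 299.6 and 312 CPM in WT libraries at d30. SOD1 2 and WT 1 were the highest at d120, and SOD1 3 lay within the d30 range. The fitted change of Rps27 was 1.54 ± 0.43 (adjusted p = 0.00416). Rps12, of the small subunit, had 200, 399 and 101 CPM in SOD1 and 583, 285 and 101 CPM in WT libraries at d120, and 108, 99.3 and 103 CPM in SOD1 and 96.7 and 78.9 CPM in WT libraries at d30. Both replicates numbered 3 at d120 lay within the d30 range, and the fitted change was 1.53 ± 0.42 (adjusted p = 0.00415).

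Rpl12, at the base of the large subunit stalk, had 350, 773 and 256 CPM in SOD1 and 868, 524 and 265 CPM in WT CD4 libraries at d120, and 264, 197 and 227 CPM in SOD1 and 205 and 194 CPM in WT libraries at d30. The ranges overlap through SOD1 3 alone, and the change was 1.24 ± 0.35 (adjusted p = 0.00521). Rpl22l1 rose by 1.30 ± 0.36 (adjusted p = 0.00435), Rpl27a by 1.11 ± 0.34 (adjusted p = 0.0103) and Rpl17 by 1.15 ± 0.36 (adjusted p = 0.0116). Rpl4, Rpl3 and Rplp0, which rose in culture, had changes of -0.00 ± 0.27, 0.07 ± 0.28 and 0.20 ± 0.30, and none passed the test. The count of 20 fell to 0 without CD4 d30 WT 2 or without CD4 d30 WT 3, to 5 without d120 SOD1 2, to 6 and 8 without d30 SOD1 3 and 2, and to 9 without d120 WT 1. It grew to 45 without d120 SOD1 3 and to 53 without d120 WT 3, and a dispersion shared by all genes left 4.

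In the same CD4 libraries, 11 of 13 mitochondrially encoded transcripts rose, and their share of counts was 1.75% to 3.41% at d120 against 0.758% to 1.22% at d30. The 6 Treg markers summed to 806 to 1650 CPM at d120 and 503 to 725 at d30, and 4 of them rose, none being at 0. The 11 leukocyte and thymocyte markers summed to 3279 to 4498 at d120 and 5078 to 6739 at d30, with 1 higher, 2 lower and none at 0. The 8 myeloid and dendritic markers summed to 37.9 to 621 at d120 and 221 to 457 at d30, with 5 lower and Itgam at 0 in all d120 libraries. Their part in the result was not tested. Of the biogenesis factors 3 were higher and 2 lower (median -0.02), where 8.05% of all genes tested were higher and 10.1% lower.

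In sorted Treg cells, 6 of 84 members were higher and 2 lower at d120 than at d30, or 7.14% and 2.38%, where 18.6% of all genes tested were higher and 16.8% lower, and the median was 0.07. Rpl10a, of the large subunit, had 408, 332 and 297 CPM in SOD1 and 392, 361 and 312 CPM in WT libraries at d120, and 275, 220 and 258 CPM in SOD1 and 237, 241 and 245 CPM in WT libraries at d30. The days do not overlap, and Rpl10a rose by 0.51 ± 0.12 (adjusted p = 9.79e-05). Rpl11 rose by 0.37, Rpl7a by 0.31 and Rpl35 by 0.32, and their calls were lost in 2, 7 and 13 of 21 alternatives. Rps27l moved the other way, with 113, 108 and 110 CPM in SOD1 and 128, 121 and 106 CPM in WT libraries at d120 against 192, 137 and 153 CPM in SOD1 and 155, 168 and 141 CPM in WT libraries at d30. No library overlaps, and Rps27l fell by 0.47 ± 0.12 (adjusted p = 0.00042), as did Rpl39 by 0.37 ± 0.14 (adjusted p = 0.029). The call of Rpl39 was lost in 8 of 21 alternatives, while Rpl10a and Rps27l kept theirs in all 21. The 8 calls were 25 without Treg d120 SOD1 3, 15 without d120 WT 3, 5 without d30 WT 2 and 4 without d30 WT 1 or d30 SOD1 3. B cell markers summed to 159 to 431 CPM at d120 and 34.5 to 90.1 at d30, with 4 of 6 higher, 8 of 11 leukocyte and thymocyte markers fell, and 9 of 13 mitochondrially encoded transcripts rose. Their part was not tested.

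In thymic epithelium, few members were called between days. In mTEC, 5 of 82 members (6.1%) were higher at d120 than at d30 and 0 lower, against 4.01% and 3.45% of all genes, and the median was 0.26 over members and 0.19 over the other short genes. Rpl24, of the large subunit, had 269, 217 and 293 CPM in SOD1 and 239, 281 and 318 CPM in WT libraries at d120, and 0, 154 and 151 CPM in SOD1 and 173, 151 and 177 CPM in WT libraries at d30. The value of 0 is the library of 15135 counts, and the days do not overlap with or without it. Rpl24 rose by 0.83 ± 0.22 (adjusted p = 0.00513), and by 0.70 without that library. The others were Rps4l (0.88 ± 0.24), Rpl22l1 (0.87 ± 0.24), Rpl10a (0.79 ± 0.24) and Rpl35 (0.67 ± 0.20). Rps4l had 207, 187 and 184 CPM in SOD1 and 167, 133 and 103 CPM in WT mTEC at d120, and 0, 105 and 78.2 CPM in SOD1 and 73.9, 101 and 97.9 CPM in WT mTEC at d30. The lowest d120 library lay just under the highest d30 one.

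The 5 mTEC calls were 0 with a dispersion shared by all genes, 1 without mTEC d30 WT 1, 2 without d30 SOD1 2 or d30 SOD1 3, 3 without d30 WT 2, and 8 without d120 WT 3. In cTEC the median change between days was 0.42 over the members, -0.30 over all genes and -0.06 over the other short genes. With library totals alone the member median was 0.10 and the all-gene median -0.56. Of 81 members tested in cTEC, 1 was higher at d120 and 0 lower, against 3.11% and 6.24% of all genes. It was Rpl22l1, with 189, 97.2 and 194 CPM in SOD1 and 200, 193 and 127 CPM in WT libraries at d120, and 44.7, 53.2 and 67.1 CPM in SOD1 and 64.2 and 72.6 CPM in WT libraries at d30. The days do not overlap, and Rpl22l1 rose by 1.44 ± 0.45 (adjusted p = 0.0212). The call was lost without any 1 of the 5 d30 libraries and without d120 WT 1 or d120 WT 2, and without d120 SOD1 3 there were 3 calls. The 11 leukocyte and thymocyte markers, none at 0, summed to 28.3 to 376 CPM in cTEC at d120 and 1599 to 2337 at d30, and all 11 fell. Their part was not tested.

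Some paralogues changed relative to their partners. For 3 pairs the counts of the paralogue were divided by those of its partner in each library with at least 10 counts of each. The ratio is not scaled for length, so only its differences between libraries are read, and its means are geometric. Exact two-sided permutation tests over libraries were adjusted over 30 tests, and this measure was added after the data had been seen. The annotated starts of Rps27, Rpl22, their paralogues and Rpl38 are shown. Each window holds 40 bases before the RefSeq start and 15 from it (GRCm38.p6), and capitals mark a run of at least 5 pyrimidines that covers the start. The run may begin before the start and need not have C there, so it does not by itself mark a TOP element.
Rps27, chr3:90213634-90213688, minus strand: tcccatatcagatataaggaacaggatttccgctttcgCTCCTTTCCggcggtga
Rps27l, chr9:66946046-66946100, plus strand: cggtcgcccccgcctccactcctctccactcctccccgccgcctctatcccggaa
Rpl22, chr4:152325686-152325740, plus strand: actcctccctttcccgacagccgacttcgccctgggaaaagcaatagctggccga
Rpl22l1, chr3:28805468-28805522, plus strand: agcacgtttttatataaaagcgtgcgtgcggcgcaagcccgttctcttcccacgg
Rpl38, chr11:114668540-114668594, plus strand: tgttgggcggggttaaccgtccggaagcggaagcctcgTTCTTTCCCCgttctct
Rps27 has such a run and Rps27l has none, and neither Rpl22 nor Rpl22l1 has one. Rpl38, described with the T2 genotype difference, has one of 10 bases. Of the other members called there, Rpl15, Rpl28 and Rps10 have runs of 17, 11 and 13 bases, and Rps16 and Rps12 have none. A link between these runs and that difference was not tested. Rpl22l1 was the 1 member with TATAAA in the 50 bases before its start on the given strand.

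Over the 64 members that matched a RefSeq promoter, from 250 bases before to 50 after the start, 19 (29.7%) had a pyrimidine run over the annotated start, against 8.69% of 16422 protein-coding genes. The letters CCGGAAG, searched on both strands, were in 25 members (39.1%) and 12.3% of protein-coding genes, AAGATGG in 9 (14.1%) and 6.42%, and GGGCGG in 38 (59.4%) and 48.0%. The Myc-type letters CACGTG were in 5 members (7.81%) and 8.11% of protein-coding genes. TATAAA was in 1.56% of members and 3.43% of protein-coding genes. These are descriptions of annotated letters, not of binding or of the starts used in these cells.

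Rps27l over Rps27 was low in unactivated cultures and in iLN and high in epithelium. In cultures it averaged 0.0528 at T0, 0.406 at T2 and 0.298 at T20 (6 libraries each), with no overlap of T2 or T20 with T0 (exact permutation test, adjusted p = 0.0108 for each). T2 SOD1 1, which stood apart in its share, had a ratio of 0.357, within the range of the other T2 libraries, of which T2 SOD1 3 was the highest of all cultures with 0.661. In CD4 cells it was 0.106 at d120 and 0.324 at d30 (exact permutation test, adjusted p = 0.0108, no overlap), in Treg 0.277 at d120 and 0.402 at d30 (adjusted p = 0.0186 by the same exact test, overlapping), and in cTEC 0.760 at d120 and 1.17 at d30 (adjusted p = 0.0260 by the same exact test, no overlap). In mTEC it was 1.02 at d120 and 1.11 at d30 (adjusted p = 0.444 by the same exact test). At d120 it was 1.02 in mTEC and 0.760 in cTEC (exact test, adjusted p = 0.0433, overlapping). At d120 Treg and CD4 did not overlap (0.277 against 0.106, exact test, adjusted p = 0.0108), while at d30 they were 0.402 and 0.324 (adjusted p = 0.0611, exact test). The 4 iLN libraries with enough counts lay at 0.0175 to 0.0243.

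Rpl22l1 over Rpl22 was higher at d120 than at d30 in all 4 sorted populations. It averaged 2.05 at d120 and 1.14 at d30 in mTEC, 2.63 and 0.932 in cTEC, 1.28 and 0.943 in Treg, and 1.53 and 0.930 in CD4. The days did not overlap in any population, although in CD4 the lowest d120 library lay only just above the highest d30 one. The exact permutation tests gave adjusted p = 0.0108 for mTEC, 0.0260 for cTEC, 0.0108 for Treg and 0.0295 for CD4. The ratio was 0.416 at T0, 0.329 at T2 and 0.324 at T20 in cultures, and the exact tests against T0 gave adjusted p = 0.254 and 0.106. Of the 2 genes, Rpl22l1 was called higher at d120 in mTEC, cTEC and CD4, and Rpl22 was called in no age comparison. Rpl7l1 over Rpl7 averaged 0.0915 at T20 and 0.0538 at T0 (exact permutation test, adjusted p = 0.0260), and its other comparisons gave adjusted p of 0.0549 or more.

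**Figure D3:**
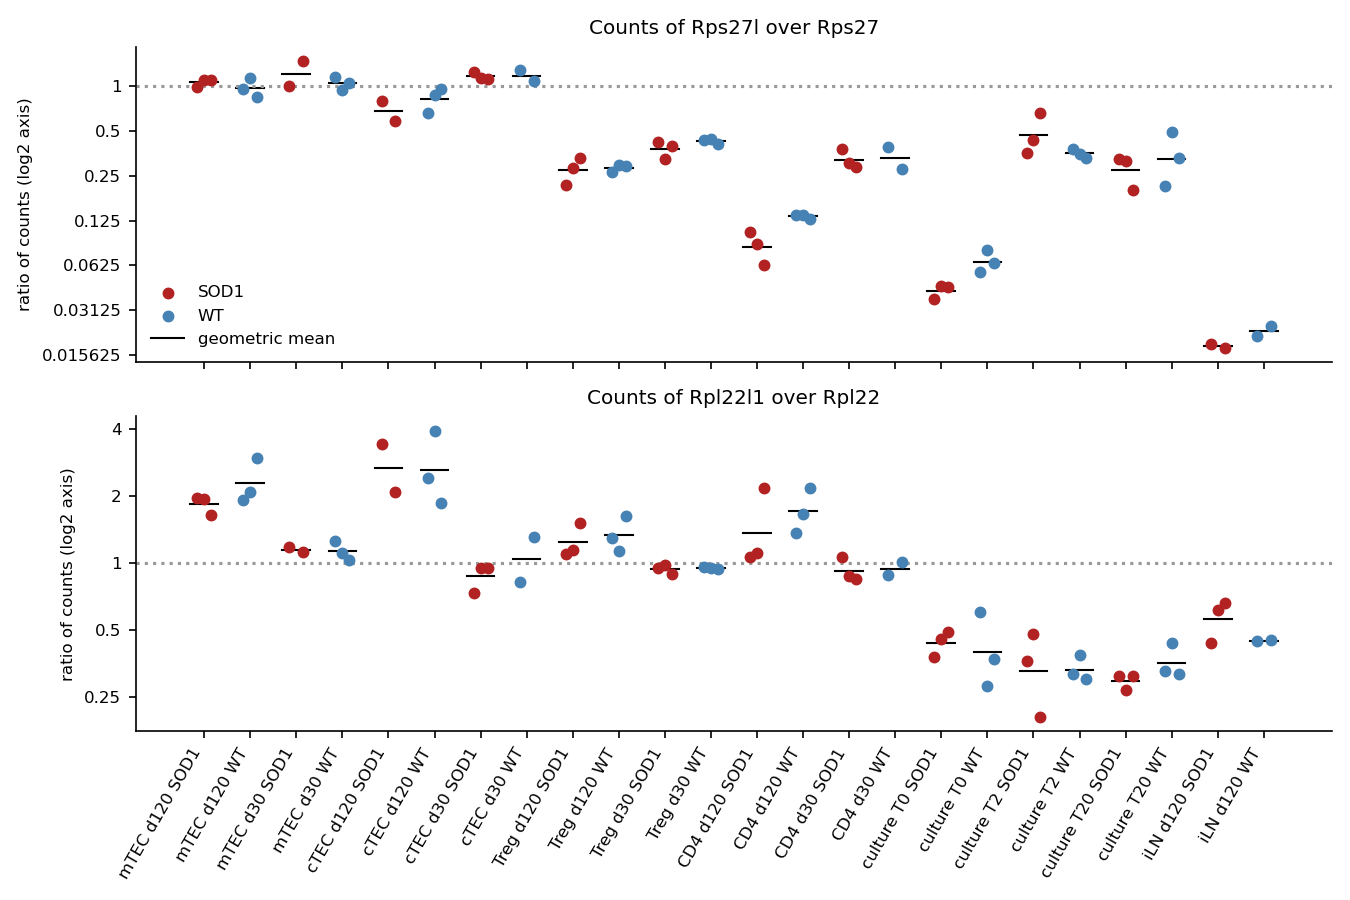
Counts of Rps27l over Rps27 (above) and Rpl22l1 over Rpl22 (below) on a log2 axis, 1 point per library with at least 10 counts of each gene, bars at the geometric mean. In the upper panel T0 cultures and iLN lie lowest, and in the lower panel d120 lies above d30 in each sorted population.

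Rps4l, Rpl3l and Rps27l, followed by Rps12l1 and Rpl7l1, varied most between groups relative to the median member, with SDs of 3.33, 1.58, 1.32, 1.14 and 1.08 on the log2 scale over the groups with counts. Rps4l, on chromosome 6 at 148354656 to 148355598, was counted mainly in epithelium. Beside the mTEC values, cTEC at d120 had 130, 90.2 and 0 CPM in SOD1 and 78.8, 80.4 and 47 CPM in WT libraries, while it did not pass the filter in cultures. Its value in whole thymus was 10.5, 7.62 and 8.24 TPM in SOD1 and 3.93, 7.02 and 4.34 TPM in WT libraries. The genotypes do not overlap there, but the difference of 0.71 ± 0.25 on the log2(TPM + 1) scale had an adjusted p of 1 with limma.

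Treg and CD4 cells were compared on each day. At d120, 40 of 83 members (48.2%) were lower in Treg than in CD4 and 1 higher, against 8.11% and 13.8% of all genes, and 13.3% of the other short genes were lower. The median at d120 was -0.74 over the members, 0.14 over all genes and -0.30 over the other short genes. At d30, 1 member was higher in Treg and 0 lower, against 3.22% and 3.54% of all genes. The CD4 d120 libraries are the ones that differed from d30 above, so the values are not independent of that comparison. Rps27 had 495, 376 and 327 CPM in SOD1 and 464, 394 and 359 CPM in WT Treg at d120, and 648, 1507 and 378 CPM in SOD1 and 2407, 685 and 458 CPM in WT CD4 at d120. The Treg libraries are even and the CD4 libraries are not, and the ranges overlap through CD4 SOD1 3 and WT 3. Rps27 was lower in Treg by a fitted -1.31 ± 0.31 (adjusted p = 3.95e-04). Rpl39, of the large subunit exit tunnel, had 184, 178 and 107 CPM in SOD1 and 151, 157 and 135 CPM in WT Treg, and 185, 534 and 147 CPM in SOD1 and 762, 307 and 173 CPM in WT CD4. It was lower in Treg by a fitted -1.19 ± 0.30 (adjusted p = 9.65e-04).

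The other 4 of the 6 smallest p-values among members lower in Treg at d120 were those of Rpl12 (-1.07 ± 0.25), Rpl37 (-1.24 ± 0.30), Rps21 (-1.28 ± 0.31) and Rps12 (-1.26 ± 0.31). Rpl3l was the 1 member higher in Treg, by 3.01 ± 0.73 at d120 (adjusted p = 5.38e-04) and 2.78 ± 0.77 at d30 (adjusted p = 0.00819). Its counts were low, with 15.7, 16.8 and 3.31 CPM in SOD1 and 12.8, 9.72 and 20.5 CPM in WT Treg and 0, 4.57 and 0 CPM in SOD1 and 3.63, 0.911 and 0 CPM in WT CD4 at d120. At d30 Treg had 5.15 to 11.9 CPM and CD4 0.342 to 2.7 CPM, with no overlap, and at d120 the lowest Treg library fell within the CD4 range. The fitted d120 difference was 6.36 ± 1.19 without CD4 d120 SOD1 2, the CD4 library with the highest level, and rests on CD4 libraries at or near 0, so its size is uncertain. Without CD4 d30 WT 2 the d30 call was lost (0 members).

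The 41 calls at d120 were 12 without CD4 d120 SOD1 2, 13 without CD4 d120 WT 1, 26 without Treg d120 SOD1 3, 62 without CD4 d120 WT 3, and 12 with limma voom, which weights libraries by quality. Beside them, B cell markers summed to 159 to 431 CPM in Treg and 2.39 to 194 in CD4 at d120, with 3 of 6 higher in Treg, 6 of 13 mitochondrially encoded transcripts were lower in Treg, and myeloid markers summed to 210 to 446 in Treg and 37.9 to 621 in CD4. Their part was not tested. The difference between the days was itself tested, a comparison added after the data had been seen. It was called for 2 members, both lower (0.839% of all genes, with 2.68% higher): Rpl39, by -1.47 ± 0.43 (adjusted p = 0.0290), and Rps27, by -1.43 ± 0.45 (adjusted p = 0.0437). Of 32 alternatives, 11 lost the call of Rpl39 and 22 that of Rps27.

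**Figure D4:**
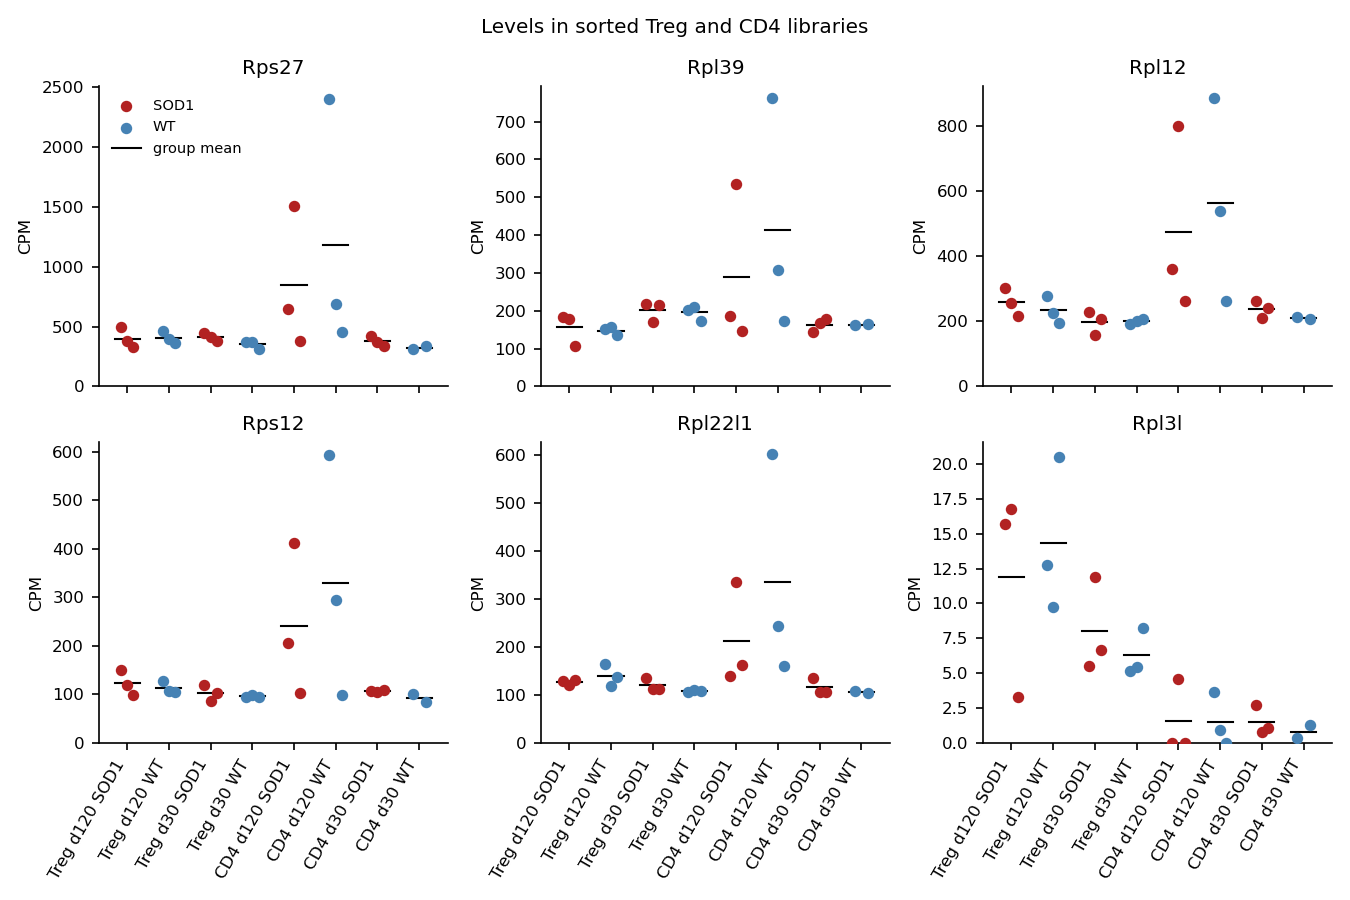
CPM of 6 ribosomal protein genes in sorted Treg and CD4 libraries at d120 and d30, 1 point per library with the group mean as a bar, each panel with its own axis from 0. CD4 libraries at d120 spread widely, as for Rps27 from 378 to 2407 CPM, and Rpl3l is higher in Treg.

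Between mTEC and cTEC, edgeR called 0 of 84 members on either day, while 27.6% of all genes at d120 and 21.6% at d30 were called, most of them higher in mTEC. At an unadjusted p under 0.05 there were 2 members at d120 and 0 at d30, beside 7416 and 6064 of 20223 genes tested. DESeq2 called 0 on both days, and limma voom called 0 at d120 and 5 at d30. The member median was 0.03 at d120 and -0.06 at d30, while the other short genes had medians of 1.27 at d120 and 0.56 at d30, and 36.6% of them at d120 and 33.6% at d30 were higher in mTEC. The difference between days was called for 0 members (2.13% of all genes), and for 0 with DESeq2 or limma voom. At an unadjusted p under 0.05 there were 0 members, beside 2550 of all genes tested.

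SOD1 and WT libraries were compared in each population, day and culture time. A genotype difference in members was called in T2 cultures alone, where 6 of 83 members (7.23%) were lower in SOD1 and 0 higher, against 0.416% of all genes lower and 0.204% higher. The median was -0.78 over the members, -0.52 over the other short genes and 0.06 over all genes. Rpl38, of the large subunit, had 95.5, 342 and 261 CPM in SOD1 and 707, 748 and 710 CPM in WT cultures at T2. The genotypes do not overlap, and SOD1 1, which stood apart, is lowest. Rpl38 fell by 1.65 ± 0.38 (adjusted p = 0.00658). Rps16 had 162, 497 and 348 CPM in SOD1 and 775, 919 and 1177 CPM in WT cultures, and Rps12 147, 334 and 435 CPM in SOD1 and 1145, 661 and 909 CPM in WT cultures. Neither overlaps, and they fell by 1.52 ± 0.36 (adjusted p = 0.0107) and 1.59 ± 0.38 (adjusted p = 0.0111).

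Rpl15 (-1.47 ± 0.36), Rpl28 (-1.67 ± 0.43) and Rps10 (-1.41 ± 0.39, adjusted p = 0.0465) completed the T2 calls. Without T2 SOD1 1 there were 2 calls and a median of -0.33, without T2 SOD1 2 or T2 SOD1 3 there were 17 and 18, without T2 WT 3 there was 1, and with a shared dispersion there were 0. At T20 the same genes overlapped, as for Rpl38 with 681, 682 and 538 CPM in SOD1 and 588, 641 and 715 CPM in WT cultures. The test of whether the change from T0 to T2 differs between genotypes called 0 members (0.017% of all genes), and 0 with DESeq2 or limma voom. At an unadjusted p under 0.05 there were 3 members, beside 597 of 11787 genes tested.

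In the other genotype comparisons edgeR called 0 members, with 2 in Treg at d120 without d120 SOD1 3 and 1 without d120 WT 1, and DESeq2 and limma voom called 0 where they were run. Members that passed an unadjusted p of 0.05 follow, each beside all genes tested at that threshold. The bracketed percentages are shares of all genes called at an adjusted p, so they do not match the unadjusted counts. In mTEC, 2 members passed at d120, beside 1811 of 18919 genes (1.14% called), and 0 at d30, beside 110 (0.0106%). In cTEC there were 2 at d120, beside 1566 of 14620 genes (0.308%), and 0 at d30, beside 62 (0.0274%). In Treg there was 1 at d120, beside 1229 of 14824 genes (0.182%), and 1 at d30, beside 306 (0.027%). In CD4 there were 0 at d120, beside 940 of 12479 genes (0.168%), and 0 at d30, beside 43 (0.016%). T0 cultures had 2, beside 770 of 11787 genes (0.229%), and T20 cultures 0, beside 358 (0.178%). There was 1 in iLN, beside 359 of 5226 genes (0.153%). With limma there was 1 in whole thymus, beside 494 of 14437 genes (0.0831%). The tests of whether the age change differs between genotypes called 0 members in mTEC (0.00529% of all genes), cTEC (0.0205%), Treg (0.0607%) and CD4 (0.016%), with 1, 0, 0 and 0 at an unadjusted p under 0.05, and the T20 change against T0 called 0 (0.0255%), with 1. Of all genes, 934, 726, 685 and 355 passed that unadjusted threshold in these age by genotype tests, and 558 in the T20 test. The member medians of the age by genotype tests were 0.37 in mTEC, 0.35 in cTEC, 0.00 in Treg and -0.56 in CD4, and that of the T20 test was 0.33. Those of the SOD1 against WT comparisons other than T2 ran from -0.42 in T0 cultures to 0.20 in CD4 at d30, with 0.11 in mTEC, 0.14 in cTEC, 0.11 in Treg and -0.32 in CD4 at d120. The sign at d120 rests on single libraries in 3 of these populations. The CD4 median was 0.35 without CD4 d120 WT 1 and -0.67 without CD4 d120 WT 3. Over the 6 fits without a d120 library it ran from -0.999 to 0.35. The cTEC median was -0.08 without d120 SOD1 3, -0.01 without d120 WT 2 and 0.50 without d120 WT 1, and the Treg median was -0.07 without d120 SOD1 1 and 0.29 without d120 SOD1 3. A p that misses the threshold does not show that the levels were equal. Sorted CD4 at d120 was the least even set, with shares of 2.14% to 6.29% in SOD1 and 2.59% to 7.09% in WT libraries.

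**Figure D5:**
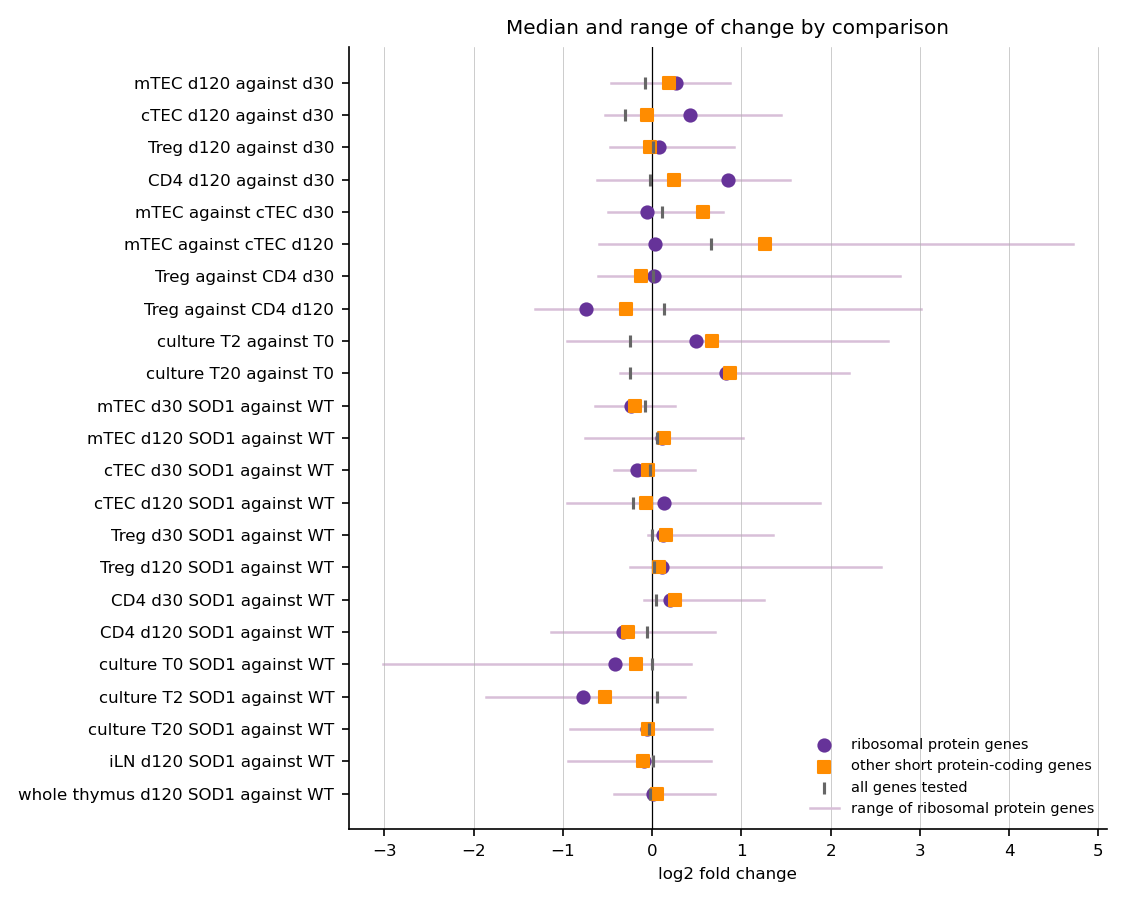
Median log2 fold change of the ribosomal protein genes, of other short protein-coding genes and of all genes tested in 23 comparisons, with the range of the members as a line. For T20 cultures against T0 the member median was 0.83 and the all-gene median -0.25, and for mTEC against cTEC at d120 they were 0.03 and 0.65, with the other short genes at 0.87 and 1.27.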

How the data were processed

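For all libraries but whole thymus the values are counts of reads per gene as the authors deposited them, taken without change. The whole thymus values were deposited under the name counts and were read here as TPM. TPM are scaled for gene length and library, so depth is unknown there. The submitters' processing notes name the build mm10 and DESeq2 with no role. Aligner, counter and strand handling were each not given in the sources used here. Groups were taken from the labels, and no replicate pair agreed within sampling noise (68 pairs, chi-square over its degrees of freedom of at least 3.13).

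Of 55487 gene IDs, 55094 matched GENCODE M21. Each population, the cultures and iLN were fitted alone over all genes with edgeR 4.0.16 (R 4.3.3), using filterByExpr by group, TMM scaling, the quasi-likelihood test and a dispersion of each gene, with calls at an adjusted p (Benjamini-Hochberg) below 0.05. mTEC with cTEC and Treg with CD4 were fitted jointly for the comparison of populations. Whole thymus was tested with limma 3.58.1 on the genes whose TPM averaged 1 or more, as log2(TPM + 1), a scale that understates changes of low genes. On simulated counts the dispersion per gene made more false calls than its adjusted p states and a shared dispersion made fewer, so counts with the shared one are printed where they differ. DESeq2 1.42.0, limma voom, other scalings, filters and left-out libraries were alternatives.

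Members and lists were chosen with earlier results of these data known. Named members are those with the 6 smallest adjusted p in each direction of a comparison, the paralogue pairs, the 5 highest and 5 lowest in whole thymus and the 5 most variable; a few of these are not reported here. Copies were found with BLAST+ 2.17.0, and promoters came from RefSeq on GRCm38.p6. Values were handled with pandas 2.3.3 and plots drawn with matplotlib 3.10.9.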

Additional observations from a re-analysis of the deposited data

Results flagged for a closer look

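A pair of results were marked because the effect of population differed between days by a test of the difference itself. The Treg minus CD4 difference of Rpl39 was more negative at d120 than at d30 by -1.47 ± 0.43 (edgeR quasi-likelihood test, adjusted p = 0.0290). At d120 Rpl39 lay at 107 to 184 CPM in Treg and at 147 to 762 CPM in CD4 libraries. At d30 it had 218, 170 and 215 CPM in SOD1 and 202, 210 and 174 CPM in WT Treg and 144, 169 and 177 CPM in SOD1 and 162 and 165 CPM in WT CD4 libraries, so Treg overlapped CD4 from above. The difference of Rps27 was more negative by -1.43 ± 0.45 (adjusted p = 0.0437). Both lost the call in some of 32 alternatives, Rpl39 in 11 and Rps27 in 22, and neither changed sign.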

How the results depend on the processing

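Of 639 alternatives over 32 comparisons, 538 kept the count of members called within 1.5 times, and of 1059 alternatives for 50 named results 875 kept the call, 184 lost it and 0 reversed. The replicate numbers were not taken to pair the samples, since no label says that a number marks 1 animal, although tube numbers recur across populations at d120, and since not every same-numbered pair correlated over 0.1. Treg and CD4 came close, with 10 of 11 pairs over 0.1 and a lowest of 0.0769, against 1 of 11 for mTEC and cTEC and 5 of 18 for culture times. With a replicate block in a paired fit the calls were 0 in cTEC between days, 17 in Treg, 11 in CD4 and 1 for Treg against CD4 by day, where Rpl39 kept its call and Rps27 lost it (Rps27, Treg vs CD4 by day, -1.10 ± 0.36, adjusted p = 0.0690 with edgeR), and within 1.5 times elsewhere.

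Between days, cTEC had 0 calls with library totals alone, no filter on low counts or a shared dispersion, and 3 with voom or without shallow libraries. mTEC had 8 with DESeq2 or its size factors, 3 with library totals or voom, and 0 with a shared dispersion. Treg had 13 with TMM computed without members, 4 with no filter, 22 with voom, 5 with a shared dispersion and 15 among protein-coding genes alone. CD4 had 8 with no filter and 4 with a shared dispersion. For Treg against CD4 there were 12 at d120 and 2 at d30 with voom, and by day 5 with DESeq2 size factors, 7 with DESeq2, and 0 with no filter, voom or a shared dispersion. mTEC against cTEC had 5 at d30 with voom, and 2 at d120 and 1 at d30 without shallow libraries. T2 SOD1 against WT had 0 with no filter, a shared dispersion or the 2 groups alone, and 3 without shallow libraries. T2 against T0 had 47 with library totals, 54 with no filter, 51 with voom and 49 among protein-coding genes. CD4 d120 SOD1 against WT had 1 with the set of libraries as a covariate. Apart from fewer genes or samples, the cause was not tested.

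Leaving out 1 library gave ranges of 0 to 3 (cTEC between days), 1 to 8 (mTEC), 4 to 25 (Treg), 0 to 53 (CD4), 0 to 2 (Treg d120 SOD1 against WT), 0 to 1 (mTEC against cTEC at d120), 12 to 62 and 0 to 1 (Treg against CD4 at d120 and d30), 0 to 20 (by day), 1 to 18 (T2 SOD1 against WT) and 20 to 68 (T2 against T0). Library totals in place of TMM gave medians over all genes of 0.00 in place of -0.24 for T2 against T0, and, between days, of -0.56 in place of -0.30 for cTEC and -0.29 in place of -0.08 for mTEC. Depth limits the lowest members and the shallow libraries, and groups of 2 or 3 libraries limit every test.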
